A study of Mus musculus with 59 samples.

Results

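The growth hormone, STAT5 and IGF axis was followed through 9 genes of mouse brown adipose tissue (BAT): Ghr, Stat5a, Stat5b, Socs2, Cish, Igf1, Igfbp3, Igfbp4 and Igfbp5. They were taken by symbol from the 3 deposited count tables, which each list 55341 genes, and all 9 were present and passed the filter on low counts in every fit. The tables hold RNA-seq counts of 59 BAT samples, 1 per mouse, from male C57BL/6J mice aged 8 to 12 weeks, in 3 experiments. In the TH experiment, mice were made hypothyroid with propylthiouracil (PTU) and then given thyroid hormone (TH, a mixture of T3 and T4). Wild-type (WT) mice were taken without TH or 3, 6, 12 or 24 h after it (4 mice each), and BATKO mice without TH or 24 h after it (5 mice each). In the temperature experiment, whose table is named for 24 h, mice labelled CTRL were kept at 4 °C (3 mice) or 30 °C (4 mice) and BATKO mice at 4 °C (4 mice) or 30 °C (5 mice). In the diet experiment, whose table is named for 3.5 d, CTRL mice received chow or a high-fat diet (HFD, 4 mice each), and BATKO mice chow (2 mice) or HFD (3 mice). Neither the labels nor the methods state the genetic change that BATKO mice carry, the promoter behind it, or the genotype of CTRL mice beyond that name.

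Growth hormone binds its receptor, encoded by Ghr, and the receptor-bound kinase JAK2 phosphorylates STAT5A and STAT5B. These move to the nucleus and regulate their targets. Among the classical STAT5 targets are Cish and Socs2, whose products feed back on the receptor, and Igf1, whose product is the hormone that carries many growth hormone effects. Most IGF1 outside cells is held by IGF binding proteins, of which IGFBP3 is the main carrier in blood, while IGFBP4 and IGFBP5 act mainly in tissues. Growth hormone and thyroid hormone both act on brown fat, and thyroid hormone receptors bind DNA at repeats of the half-site AGGTCA.

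In GRCm38, the build of the files, all 9 are annotated as protein coding. Ghr lies on chromosome 15 (chr15:3317760-3583492), Igf1 and Socs2 on chromosome 10 (chr10:87858265-87937042 and chr10:95385362-95417180), Cish on chromosome 9 (chr9:107296026-107302784) and Igfbp5 on chromosome 1 (chr1:72857932-72874884). Igfbp3 (chr11:7206086-7213923), Igfbp4 (chr11:99041244-99054392), Stat5b (chr11:100780731-100850724) and Stat5a (chr11:100859351-100885169) share chromosome 11, where Stat5b and Stat5a stand next to each other on opposite strands. Opposite-strand genes overlap Stat5a (Stat3, 72 bases), Cish (Gm17040, 1167 bases, and Gm17041, 1459 bases) and Igf1 (Igf1os, 5117 bases). The sources used here do not state whether strand was used in the counting, so reads from these stretches may belong to either gene. Stat5a and Stat5b are close paralogs, and reads that match both could have been lost or split.

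The RefSeq promoter table for GRCm38.p6 holds 11 promoters for 8 of the 9 genes, each from 250 bases before the start site to 50 after it. It has none for Socs2. Both strands of each were searched for the STAT5 motif TTCNNNGAA and the half-site AGGTCA, and 30-base windows around the matches are shown because STAT5 and the TH receptor bind such sequences. Each is written 5′ to 3′ on the gene's strand, with the matching bases in capitals.
Cish, chr9:107296654-107296683, plus strand: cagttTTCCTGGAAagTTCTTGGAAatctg
Stat5a first promoter, chr11:100859598-100859627, plus strand: tgtgacccttctAGGTCActggatggactc
Stat5a second promoter, chr11:100860428-100860457, plus strand: atcggaggcagcTGACCTttgaggaggaaa
Stat5b second promoter, chr11:100822588-100822617, minus strand: gtctgaagcagcTGACCTtttagaaggaaa
Igf1, chr10:87860938-87860967, plus strand: ctcagggaagagAGGTCAgctgcctagagc
Cish was the only one with TTCNNNGAA, in 2 copies 11 bases apart from start to start, of which the upstream one begins at the start site. At least 1 copy is present in 8.3% of all 32851 promoters in the table, and at least 2 copies are in 0.457%. The half-site AGGTCA was found in 4 of the 11 promoters, once each, beginning 46 and 44 bases before the start in the Stat5a promoters, 35 bases before it in the second Stat5b promoter and 161 bases before it in that of Igf1, while 16.3% of all promoters hold it. A direct repeat of AGGTCA with 4 bases between its 2 copies was in none of the 11 and in 0.0152% of all promoters. The Cish, Igf1 and second Stat5a windows overlap annotated exons of these genes in GENCODE, while the first Stat5a and the Stat5b windows lie inside the genes and overlap no annotated exon. A match says only that these letters stand there. Only exact letters in these short promoters were searched, so a missing match says nothing about variant or more distant elements.

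Total counts per mouse were between 7612059 and 18073627, and the BATKO libraries of the TH experiment (13593987 to 18073627) were mostly deeper than the WT ones (7805938 to 14615534). Levels are given as CPM (counts scaled to a common library size) after TMM scaling within an experiment. P-values of edgeR rest on the spread between mice within groups, estimated over all groups of a fit and with information shared across genes. Brown adipocyte markers were high in every mouse, with a summed level between 5924 and 28782 CPM for 8 genes, while the 3 liver markers summed to at most 0.824 CPM. The summed level of 5 skeletal muscle markers was between 0.639 and 7584 CPM, with large differences between mice of the same group, and 11 mice were above 1000 CPM. The TH target genes Hr and Klf9 had log2 fold changes of 4.57 and 1.31 in WT mice 24 h after TH. In BATKO mice these were 0.50 (SE 0.39) and 0.66 (SE 0.18), neither called, with Klf9 at an unadjusted p of 7.35e-04 in edgeR. The difference between the BATKO and WT responses was called for Hr (-4.07, edgeR adjusted p = 4.59e-05) and not for Klf9 (-0.65, edgeR adjusted p = 0.103).

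**Figure D1:**
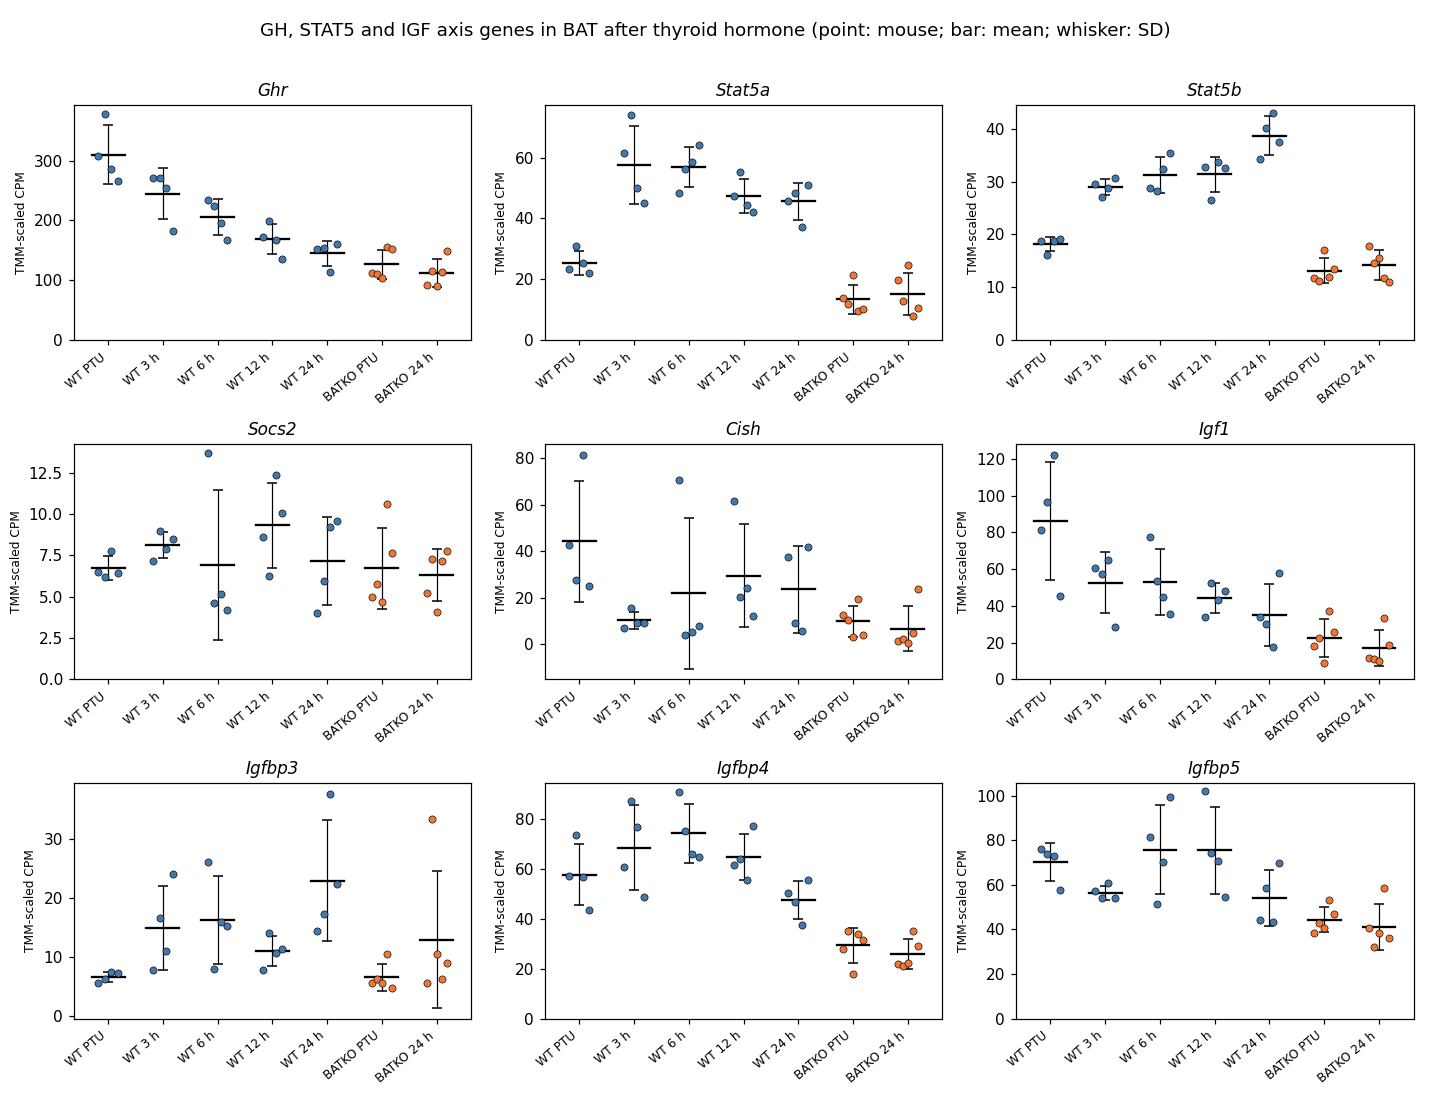
Level of each of the 9 genes (vertical axis, TMM-scaled CPM) in each mouse of the TH experiment, by group on the horizontal axis, with WT mice in blue and BATKO mice in orange, points for mice, bars for group means and whiskers for 1 SD. Ghr stepped down over time in WT mice while Stat5a and Stat5b stood higher at every time, and no gene was called between the BATKO groups.

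The first question of the design was how TH changes these genes over time in hypothyroid WT mice. Of the 9 genes, 3 were called higher and 0 lower at 3 h, while of all genes tested 9.19% were called, 5.1% higher and 4.09% lower. At 6 h, 3 were higher and 1 lower (of all genes 23%, with 12.1% higher and 10.9% lower). At 12 h, 2 rose and 2 fell (25.7%, with 13.6% higher and 12.1% lower), and at 24 h 3 rose and 2 fell (32.7%, with 17.2% higher and 15.5% lower). The receptor was called lower at 6, 12 and 24 h, and both transducers were called higher at all 4 times. Igf1 was called lower at 12 and 24 h and Igfbp3 higher at 3, 6 and 24 h, and neither feedback gene was called. The medians of the 9 log2 fold changes were 0.22, 0.09, 0.17 and -0.28 at 3, 6, 12 and 24 h, beside 0.0098, -0.0040, -0.018 and 0.0081 over all genes. At each time 4 of the 9 had no overlap between treated and control mice, against 16.2%, 26.2%, 26.1% and 29.1% of all genes. In bulk tissue, less RNA of a gene per cell and fewer cells that hold it cannot be told apart.

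Ghr, the growth hormone receptor, was the most abundant of the 9 per kilobase of exon in PTU-fed WT mice. PTU-fed WT mice had 308, 379, 286 and 266 CPM. Mice taken 3, 6 and 12 h after TH had between 182 and 272 CPM, between 167 and 234 CPM and between 136 and 199 CPM. At 24 h the 4 mice had 152, 154, 115 and 161 CPM. The groups at 6, 12 and 24 h lay wholly below the controls. On the log2 scale Ghr changed by -0.36 (SE 0.15) at 3 h, which was not called (edgeR adjusted p = 0.134), then fell by 0.61 at 6 h (edgeR adjusted p = 0.00549), 0.87 at 12 h (edgeR adjusted p = 2.02e-04) and 1.09 (SE 0.15) at 24 h (edgeR adjusted p = 1.16e-05), a 2.13-fold fall. Between 3 and 24 h it fell by a further 0.73 (SE 0.15, edgeR adjusted p = 0.00157), also with no overlap (as for 2 of the 9 genes and 20.2% of all). Of the 8 brown adipocyte markers, 5 also fell at 24 h and 1 rose, and their part in the fall of Ghr was not tested.

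The transducers Stat5a and Stat5b rose at all 4 times. Stat5a had 23.3, 30.9, 25.3 and 22.1 CPM in controls and 61.4, 74, 49.9 and 45 CPM at 3 h, so that the lowest treated mouse was above the highest control. At 24 h it had 45.8, 48.4, 37.2 and 51 CPM. Its log2 fold change was 1.16 (SE 0.15, edgeR adjusted p = 2.72e-05) at 3 h, 1.15 at 6 h (edgeR adjusted p = 1.08e-05), 0.91 at 12 h (edgeR adjusted p = 9.75e-05) and 0.84 (SE 0.15, edgeR adjusted p = 1.54e-04) at 24 h. The rise was thus in place by the first time point, and the change from 3 to 24 h (-0.32, SE 0.14) was not called (edgeR adjusted p = 0.127) but was called without mouse B11 of the 3 h group (log2 change -0.41, edgeR adjusted p = 0.0494). Stat5b had 18.7, 16.2, 18.8 and 19.1 CPM in controls, a spread of only 7.45% (coefficient of variation), and 29.5, 27.1, 28.8 and 30.7 CPM at 3 h. At 24 h it had 34.3, 40.2, 42.9 and 37.4 CPM, above every mouse of the 3 h group. Its log2 fold change went from 0.65 (SE 0.10, edgeR adjusted p = 3.44e-04) at 3 h over 0.76 (edgeR adjusted p = 2.36e-05) and 0.80 (edgeR adjusted p = 9.30e-06) to 1.09 (SE 0.11, edgeR adjusted p = 1.20e-07) at 24 h, a 2.12-fold rise. Unlike that of Stat5a, its step from 3 to 24 h was called (log2 change 0.43, SE 0.10, edgeR adjusted p = 0.00463). Whether the courses of the 2 genes differ from each other was not tested.

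The feedback genes Socs2 and Cish were not called at any time. Socs2, whose protein limits growth hormone receptor signalling, had 6.52, 6.21, 7.79 and 6.42 CPM in controls and 4.0, 5.94, 9.22 and 9.55 CPM at 24 h, with overlap. Its log2 fold changes were between 0.01 and 0.48 at the 4 times, and the interval at 24 h was -0.54 to 0.75. Cish, encoding the SH2 protein CIS, varied far more. Controls had 42.7, 27.8, 81.6 and 25.1 CPM and mice at 3 h 7.24, 15.8, 9.37 and 9.16 CPM. All 4 mice at 3 h were thus below all 4 controls, yet the log2 fold change of -2.12 (SE 0.76) missed the threshold (edgeR adjusted p = 0.0853). It passed with no filter on low counts (adjusted p = 0.004 in edgeR), in a fit of only these 2 groups (0.00391), and without the 2 WT mice above 1000 CPM of muscle markers (0.0163), neither of them in these 2 groups. At 6 h the mice had 70.7, 4.06, 5.42 and 8.06 CPM, of which 3 were lower than all controls and 1 lay within the control range. This mouse, B12, also had the highest Socs2 and the highest muscle marker sum (1520 CPM) of the experiment. Without it, Socs2 at 6 h changed from 0.01 to -0.55 (edgeR adjusted p = 0.122, not called), the other 3 mice at 4.62, 5.15 and 4.17 CPM lying below all controls. Likewise, Cish at 6 h had a log2 fold change of -2.92 (edgeR adjusted p = 0.00353) in place of -1.03 (edgeR adjusted p = 0.32). At 12 and 24 h mice ranged between 12.2 and 61.7 CPM and between 5.87 and 41.9 CPM, overlapping the controls (log2 fold changes -0.56 and -0.90).

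Igf1, the main IGF of adult tissue, was called lower at 12 and 24 h. Controls had 81, 96.5, 122 and 45.1 CPM, mice at 3 h 60.4, 57.1, 65 and 28.3 CPM, and mice at 24 h 34.1, 30.2, 17.5 and 57.9 CPM. One mouse at 24 h lay within the control range, so the groups overlapped at every time. The changes of -0.73 at 3 h (edgeR adjusted p = 0.153) and -0.72 at 6 h (edgeR adjusted p = 0.105) were not called. On the log2 scale it fell by 0.95 (SE 0.32, edgeR adjusted p = 0.0324) at 12 h and by 1.31 (SE 0.32, edgeR adjusted p = 0.00367) at 24 h, a 2.47-fold fall. Its change between 3 and 24 h was -0.57 (edgeR adjusted p = 0.225) and was not called. Of 7 stromal progenitor markers 2 were called lower at 12 h (median -0.32) and 1 at 24 h (median -0.16), and of 8 brown adipocyte markers 4 and 5 were lower and 1 higher at each of these times. Their part in the fall of Igf1 was not tested. The 12 h call was lost when any 1 of 5 mice was left out (B3, B4, B19, B21 or B23; adjusted p between 0.0519 and 0.12 in edgeR) and in the fit of all 30 mice (0.0723). The 24 h call was kept in that fit and without any 1 of the 8 mice it compares. Without control mouse B5, which had the lowest control value, the change at 6 h was called (log2 change -0.93, edgeR adjusted p = 0.0404), as were those at 3 and 6 h with no filter on low counts (0.0447 and 0.028).

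Among the binding proteins, Igfbp3 rose and the other two were not called against controls. Igfbp3, the main carrier of IGF1 in blood, had 5.52, 6.21, 7.48 and 7.21 CPM in controls, 7.87, 16.7, 11 and 24.1 CPM at 3 h and 14.5, 17.3, 37.7 and 22.4 CPM at 24 h. Every treated mouse at every time was above every control. The log2 fold change was 1.16 (SE 0.35, edgeR adjusted p = 0.0418) at 3 h, 1.29 (edgeR adjusted p = 0.0111) at 6 h, 0.73 (edgeR adjusted p = 0.153, not called) at 12 h and 1.80 (SE 0.35, edgeR adjusted p = 4.89e-04) at 24 h, a 3.48-fold rise. The 3 h call was lost without any 1 of 6 mice (B2, B3, B4, B5, B8 or B11; adjusted p between 0.0556 and 0.175 in edgeR) and in the fit of all 30 mice (0.1), and the 6 h call without B12 (0.0516). A fit of only the mice compared called the change at 12 h (log2 change 0.73, edgeR adjusted p = 0.0101), while the 24 h call was kept without any 1 of the 8 mice it compares. Igfbp4, which binds IGF1 in tissue and is cut by the protease PAPP-A, had 57.2, 73.3, 56.6 and 43.5 CPM in controls and 50.3, 46.6, 37.5 and 55.5 CPM at 24 h, which overlap (log2 fold change -0.28, edgeR adjusted p = 0.227). Igfbp5, a matrix-bound member of the family, likewise had 76.4, 74, 73.2 and 57.7 CPM and 44.3, 58.6, 43.4 and 70.0 CPM (log2 fold change -0.38, edgeR adjusted p = 0.128). Set against 3 h, 1 of the 9 genes was higher and 2 were lower at 24 h (21.2% of all genes were called, 11.4% higher and 9.88% lower). Besides Ghr and Stat5b, this was Igfbp4, which fell by 0.51 on the log2 scale (SE 0.17, edgeR adjusted p = 0.0422), a call lost without any 1 of 5 mice (B8, B9, B24, B26 or B27; adjusted p between 0.0552 and 0.164 in edgeR). It was also lost in a fit of only the mice compared (edgeR adjusted p = 0.0861), in that of all 30 mice (0.0641) and without the 2 WT mice above 1000 CPM of muscle markers (0.0908). Without B11, 5 of the 9 were called, with Stat5a lower and Igfbp3 higher (log2 change 0.99, edgeR adjusted p = 0.0415). The 5 skeletal muscle markers were all called higher at 24 h than at 3 h (median log2 change 3.00). Of 8 brown adipocyte markers 4 were lower and 0 higher (median -0.78), as were 2 of 3 smooth muscle markers (median -0.81) and 1 of 5 endothelial markers, and their part in these results was not tested.

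The second question was whether BATKO mice respond in the same way. In edgeR, 0 of the 9 genes and 0 of 14178 genes tested (0%) were called 24 h after TH in BATKO mice. At an unadjusted p under 0.05, 1 of the 9 (Igfbp3) and 673 genes passed, and DESeq2 called 0. None of the 9 was without overlap between mice before and after TH (0.719% of all genes). Ghr had 111, 111, 104, 155 and 152 CPM in PTU-fed BATKO mice and 92.3, 115, 90.0, 114 and 149 CPM after TH (log2 fold change -0.18, SE 0.15). Stat5b had 11.7, 11.2, 17, 12 and 13.5 CPM and 17.9, 14.7, 15.5, 11.8 and 11 CPM (0.12, SE 0.12). For both, the ranges before and after TH overlapped. Tested as an interaction over all 30 mice, the response of BATKO mice differed from that of WT mice for 2 of the 9 genes, 1 in each direction (12.3% of all genes, with 5.12% higher and 7.15% lower). For Ghr it was 0.91 log2 units higher (SE 0.23, edgeR adjusted p = 0.00812) and for Stat5b 0.97 lower (SE 0.18, edgeR adjusted p = 7.06e-04), and both calls were kept without any 1 mouse of the 4 groups compared. Of the 8 brown adipocyte markers 4 were called higher and 0 lower in this difference (median 0.79), and their part in that of Ghr was not tested.

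Stat5a had 14, 11.9, 21.4, 9.5 and 10.4 CPM in PTU-fed BATKO mice and 19.8, 12.9, 24.7, 8.05 and 10.7 CPM after TH. Its response was 0.66 log2 units below that of WT mice, with an interval of -1.33 to 0.01 that includes 0 (edgeR adjusted p = 0.191). Leaving out BATKO mouse 9, the highest of the treated mice, gave a difference of -0.90 that was called (edgeR adjusted p = 0.0487). Igfbp3 had 5.65, 6.18, 5.57, 10.5 and 4.72 CPM and, after TH, 5.57, 33.3, 10.5, 6.3 and 8.96 CPM. One treated mouse was far above the others, and without it (BATKO mouse 8) the difference from the WT response changed from -0.81 (edgeR adjusted p = 0.399) to -1.55 (edgeR adjusted p = 0.0298). Igf1 had 18, 22.6, 8.76, 37.4 and 25.5 CPM and 11.6, 10.8, 9.96, 33.6 and 18.6 CPM, and the difference of its response from WT was 0.89 with an interval of -0.18 to 1.97 (edgeR adjusted p = 0.28). The differences for Socs2, Cish, Igfbp4 and Igfbp5 were -0.20, 0.30, 0.10 and 0.27, none called. That of Cish ranged from -1.08 to 0.74 without any 1 mouse. It was lowest without BATKO mouse 15, which had 23.7 CPM after TH against 0.806 to 5.11 CPM in the other 4, and without which the BATKO response went from -0.61 to -1.97, not called.

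The levels of PTU-fed mice were already unlike before TH was given, which is described here without a test, since genotype and the deeper BATKO libraries cannot be told apart. Sums of cell markers differed too, with brown adipocyte sums of 10005 to 12042 CPM in BATKO and 14706 to 16680 CPM in WT mice. Endothelial sums were 396 to 449 and 307 to 328 CPM, and neither set overlapped. The brown adipocyte sum includes Ucp1, the gene of the uncoupling protein. Ucp1 by itself had 947 to 1744 CPM in PTU-fed BATKO and 4496 to 6121 CPM in PTU-fed WT mice. The gap in that sum therefore cannot be read as a gap in the number of brown adipocytes. The part of cell composition in the gap between genotypes was not tested. Mean levels in BATKO and WT mice were 127 and 309.6 CPM for Ghr, 22.5 and 86.2 CPM for Igf1, 9.92 and 44.3 CPM for Cish, and 29.3 and 57.7 CPM for Igfbp4. For Stat5a they were 13.4 and 25.4 CPM, for Stat5b 13.1 and 18.2 CPM, and for Igfbp5 44.4 and 70.3 CPM. Socs2 (6.73 CPM in both) and Igfbp3 (6.53 and 6.60 CPM) stood level. On the log2 scale, BATKO over WT was -1.29 for Ghr, -1.92 for Igf1 and -2.10 for Cish, beside a median of 0.02 and quartiles of -0.59 and 0.75 over all genes tested. The mean Ghr level of PTU-fed BATKO mice was thus below that of WT mice after 24 h of TH of 146 ± 20.9 CPM (SD, n = 4), with overlapping ranges.

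Other genes of the pathway were read from 3 lists, beside which the shares of all genes called at 3, 6, 12 and 24 h were 9.19%, 23%, 25.7% and 32.7%. Of 19 genes of growth hormone receptor signalling, 16 were tested in WT mice, of which 1 was higher and 2 lower at 3 h. The numbers were 2 higher and 3 lower at 6 h, 2 of each at 12 h and 4 of each at 24 h. The 4 with the lowest p at 24 h were Prlr, the prolactin receptor, which signals through the same transducers (log2 fold change -1.98, edgeR adjusted p = 1.62e-07), Ptpn11, encoding the phosphatase SHP2 (0.84, edgeR adjusted p = 3.33e-05), Irs1, an insulin and IGF1 receptor substrate (-1.56, edgeR adjusted p = 1.23e-04), and Socs6 (-0.66, edgeR adjusted p = 0.00128). Prlr and Irs1 were lower at all 4 times, and the kinase gene Jak2 was higher at 24 h alone among the 4 comparisons (0.30). Among 13 further genes of the IGF system, 6 were tested, of which 1 was lower at 3, 6 and 24 h each and 1 higher at 12 h. These were Stc1, whose product inhibits the protease that frees IGF1 (-1.10 at 3 h and -1.12 at 6 h), the IGF1 receptor gene Igf1r (0.69 at 12 h) and Igfals, encoding the acid-labile subunit of the circulating complex (-1.54 at 24 h). Of 10 further STAT5 targets, listed without regard to the direction in which STAT5 acts on each, 7 were tested. At 3 h Pim1 (0.78) was higher and Ccnd2 (-0.58) lower, at 6 h 0 were called, and at 12 h Ccnd2 alone was lower (-0.77). Bcl6 (1.19) and Ccnd1 (0.83) were higher and Ccnd2 (-0.74) lower at 24 h. Medians of the log2 fold changes of the 3 lists at 24 h were 0.18, -0.19 and 0.29, beside 0.0081 over all genes. The growth hormone gene Gh itself had 0 counts in every mouse. In the interaction, in which 4 of 17 genes of receptor signalling, 0 of 6 and 0 of 7 of the other lists and 12.3% of all genes were called, Prlr (2.45) and Socs6 (0.56) were higher and Ptpn11 (-0.89) and Sh2b1, encoding an adaptor of JAK2 (-0.64), lower in BATKO mice.

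**Figure D2:**
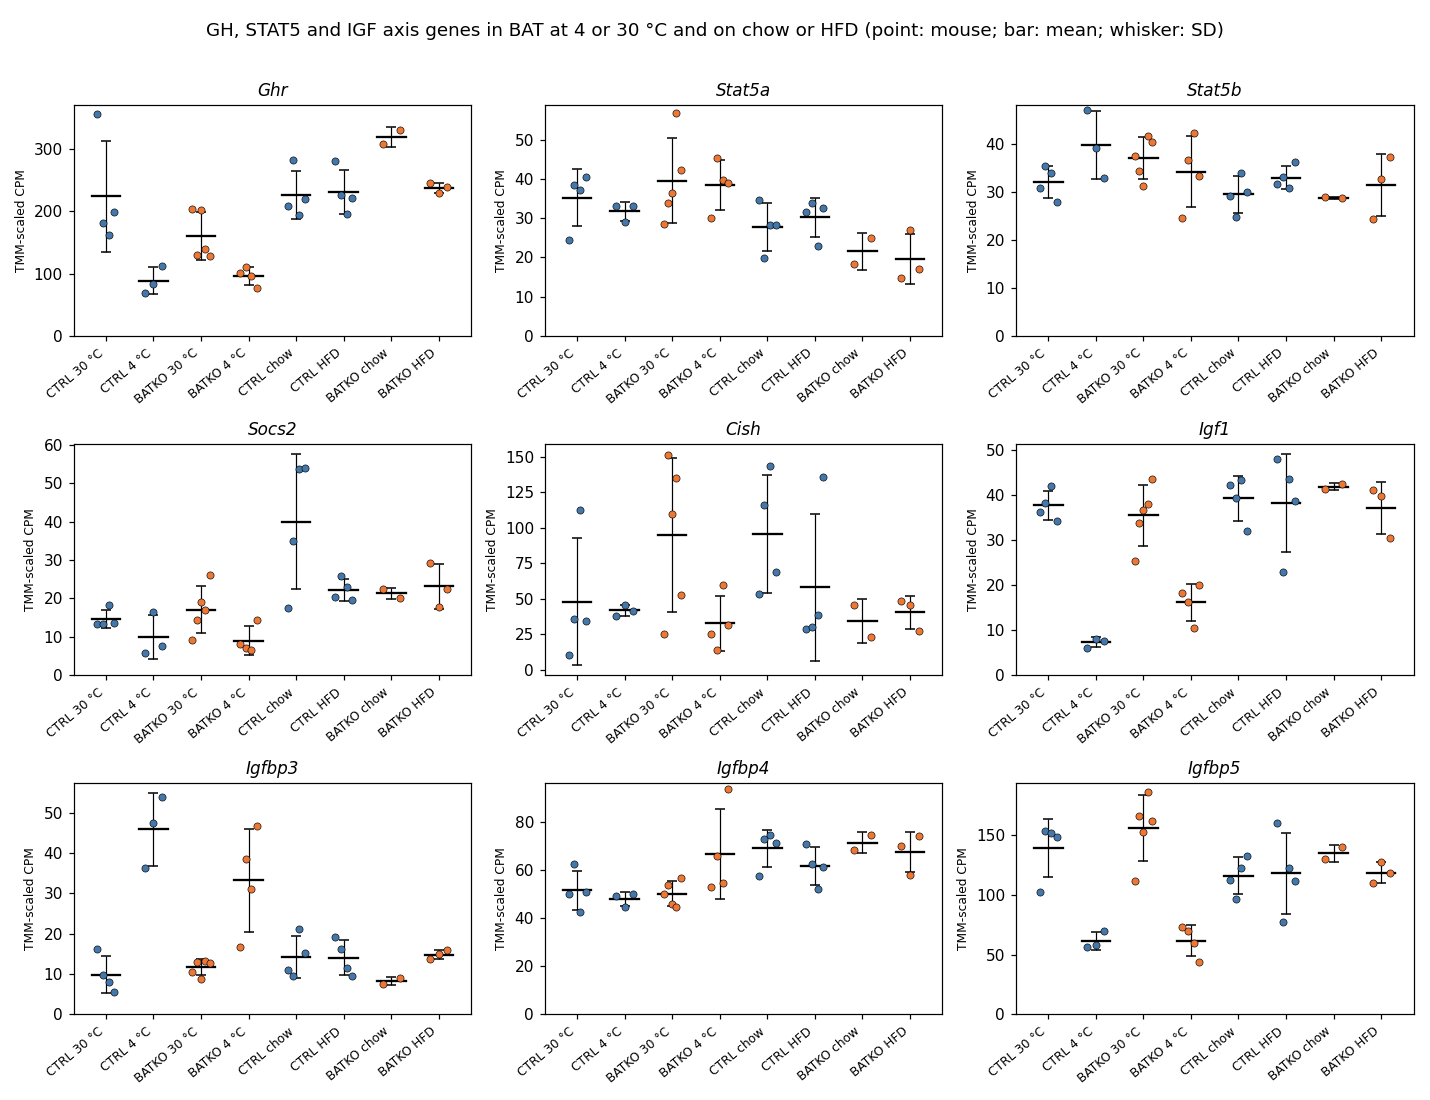
Level of each of the 9 genes (vertical axis, TMM-scaled CPM) in each mouse of the temperature experiment (left 4 groups) and the diet experiment (right 4 groups), scaled separately, with CTRL mice in blue and BATKO mice in orange, points for mice, bars for means and whiskers for 1 SD. At 4 °C Ghr, Igf1 and Igfbp5 stood below and Igfbp3 above the 30 °C groups, and the diet groups of a genotype mostly overlapped.

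The temperature experiment asked how these genes change with temperature and whether BATKO mice differ. In CTRL mice 1 of the 9 genes was higher and 3 were lower at 4 °C than at 30 °C (49.1% of all genes were called, 26.5% higher and 22.6% lower), and in BATKO mice 2 were higher and 5 lower (40.3%, with 21.4% higher and 18.9% lower). Medians of the 9 log2 fold changes were -0.20 in CTRL and -0.73 in BATKO mice, beside -0.01 and -0.02 over all genes. Ghr, Igf1 and Igfbp5 fell and Igfbp3 rose in both genotypes, with no overlap between temperatures in either genotype. These were the 4 of 9 genes without overlap, against 50.4% of all genes in CTRL and 31.2% in BATKO mice. As a check of the cold exposure, Ucp1, encoding the uncoupling protein of brown fat, had a log2 fold change of 4.40 in CTRL and 3.43 in BATKO mice. Of the 8 brown adipocyte markers 6 were higher in each genotype and 1 was lower in CTRL mice. Of 7 stromal progenitor markers 2 were lower in CTRL mice, and 1 was higher and 1 lower in BATKO mice. All 3 smooth muscle markers were higher in CTRL mice (median 0.77) and 2 of 3 in BATKO mice. Of 6 macrophage markers 1 was lower in CTRL and 2 were higher in BATKO mice, and of 5 endothelial markers 1 was higher in CTRL and 1 lower in BATKO mice. The part of cell composition in the changes below was not tested.

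Igf1 had 36.3, 38.2, 42.1 and 34.2 CPM in CTRL mice at 30 °C and 5.98, 8.11 and 7.62 CPM at 4 °C. It fell by 2.38 on the log2 scale (SE 0.22, edgeR adjusted p = 4.96e-07), a 5.21-fold fall and the largest of any of the 9 genes in the 17 comparisons. BATKO mice had 25.3, 33.8, 36.6, 38.1 and 43.7 CPM at 30 °C and 18.1, 16.2, 10.4 and 19.9 CPM at 4 °C, and the fall was 1.13 (SE 0.18, edgeR adjusted p = 1.38e-04). At 30 °C the genotypes overlapped (log2 difference -0.09, edgeR adjusted p = 0.867), while at 4 °C every BATKO mouse was above every CTRL mouse (log2 difference 1.16, SE 0.22, edgeR adjusted p = 0.0156). The stromal progenitor markers moved with this, summing to 247 to 375 CPM in BATKO and 229 to 231 CPM in CTRL mice at 4 °C. Medians of their log2 differences were 0.35 for BATKO against CTRL at 4 °C and 0.64 for the difference of the cold responses, and those of 6 macrophage markers were 0.47 and 1.03, with none of the 13 called in either. Of 5 endothelial markers 1 was called lower in each of these comparisons (medians 0.04 and -0.33). Their part in the Igf1 results was not tested. The difference between the 2 cold responses was 1.25 log2 units (SE 0.28, edgeR adjusted p = 0.0393). Igf1 was the 1 gene of the 9 called in each of these (2.16% of all genes for BATKO against CTRL at 4 °C, 0.957% higher and 1.2% lower, and 1.12% for the difference of the responses, with 0.317% higher and 0.807% lower). Both calls stood close to the threshold. That at 4 °C was lost in a fit of only the mice compared (edgeR adjusted p = 0.0664) and without CTRL mouse 1 or 2 or BATKO mouse 12 (adjusted p between 0.0515 and 0.0724 in edgeR), and that of the responses without any 1 of 12 of the 16 mice, although the difference itself stayed between 1.15 and 1.42. It was also lost without the 6 mice above 1000 CPM of muscle markers (log2 difference 1.37, edgeR adjusted p = 0.0977). The 4 mice whose loss kept that call were CTRL mouse 5 at 4 °C and BATKO mice 11 at 4 °C and 13 and 15 at 30 °C.

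Ghr had 356, 181, 161 and 198 CPM in CTRL mice at 30 °C and 69.2, 84 and 113 CPM at 4 °C, and fell by 1.34 on the log2 scale (SE 0.27, edgeR adjusted p = 6.81e-04). In BATKO mice it had 203, 130.3, 201, 139 and 128 CPM and 101, 111, 95.8 and 77.4 CPM, and fell by 0.73 (SE 0.23, edgeR adjusted p = 0.0194), a call lost without BATKO mouse 12 at 4 °C (log2 change -0.65, edgeR adjusted p = 0.0564). Without the 6 mice high in muscle markers the change was as large, at -0.81, with no call (edgeR adjusted p = 0.088). Every cold mouse was below every warm mouse of its genotype. The difference between the responses was 0.61, with an interval of -0.13 to 1.35 (edgeR adjusted p = 0.368). Stat5a and Stat5b, which rose after TH, were not called in the cold. Stat5a had log2 fold changes of -0.15 in CTRL (interval -0.60 to 0.31) and -0.04 in BATKO mice, and Stat5b of 0.31 (interval -0.05 to 0.67) and -0.12. Mean Stat5b levels were 32 ± 3.37 CPM (SD, n = 4) at 30 °C and 39.7 ± 7.06 CPM (SD, n = 3) at 4 °C in CTRL mice.

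Igfbp3 had 16.1, 9.68, 7.9 and 5.54 CPM in CTRL mice at 30 °C and 36.2, 47.4 and 54 CPM at 4 °C. BATKO mice had 10.6, 13.1, 8.7, 13.2 and 12.7 CPM and 16.6, 38.6, 31 and 46.8 CPM. In both genotypes the lowest cold mouse was above the highest warm one. The log2 fold changes were 2.22 (SE 0.33, edgeR adjusted p = 3.90e-05), a 4.66-fold rise, and 1.51 (SE 0.28, edgeR adjusted p = 5.50e-04). Igfbp5 moved the other way, from 103, 153, 152 and 149 CPM to 56.1, 58.2 and 69.8 CPM in CTRL mice and from 112, 166, 153, 187 and 162 CPM to 73, 70.0, 59.3 and 44.1 CPM in BATKO mice. It fell by 1.18 (SE 0.20, edgeR adjusted p = 1.66e-04) and 1.34 (SE 0.18, edgeR adjusted p = 2.78e-05) on the log2 scale, and no difference between the genotypes was called (difference -0.16, interval -0.72 to 0.39). Igfbp4 had 50.1, 53.7, 45.9, 44.5 and 56.9 CPM in BATKO mice at 30 °C and 52.9, 66.2, 54.7 and 93.8 CPM at 4 °C, a rise of 0.41 (SE 0.16, edgeR adjusted p = 0.0452). This call was lost without any 1 of 6 mice (8 and 12 at 4 °C, or 13 to 16 at 30 °C; adjusted p between 0.0566 and 0.245 in edgeR). It was also lost with no filter on low counts (edgeR adjusted p = 0.0701) and in a fit of only the mice compared (0.083). Without the mice above 1000 CPM of muscle markers the rise was 0.62, not called (edgeR adjusted p = 0.079). In CTRL mice the change of Igfbp4 was -0.10. At 4 °C all BATKO mice were above all CTRL mice for Igfbp4, without a call (0.48, edgeR adjusted p = 0.192). That made 2 of the 9 genes without overlap there, against 13.2% of all genes.

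Socs2 and Cish were called in the cold in BATKO mice alone, and the difference from CTRL mice was called for neither. Socs2 had 9.1, 14.5, 19, 16.9 and 26 CPM at 30 °C and 8.17, 6.93, 6.48 and 14.4 CPM at 4 °C and fell by 0.92 on the log2 scale (SE 0.33, edgeR adjusted p = 0.0327). In CTRL mice it had 13.3, 13.3, 18.3 and 13.5 CPM and 5.64, 16.5 and 7.51 CPM, and the change of -0.57 (edgeR adjusted p = 0.215) became a call of -1.15 (edgeR adjusted p = 0.0265) without CTRL mouse 2 at 4 °C, the highest of that group. Cish had 25.6, 152, 109.7, 135 and 52.6 CPM and 25.2, 14.3, 59.9 and 31.4 CPM in BATKO mice and fell by 1.54 (SE 0.59, edgeR adjusted p = 0.0467). In CTRL mice it had 10.3, 35.5, 112 and 34.3 CPM at 30 °C and 38.3, 45.8 and 41.8 CPM at 4 °C, so the warm mice spread over a 10.9-fold range around a narrow cold group. The BATKO calls were fragile, since that of Socs2 was lost without any 1 of 5 mice (7, 8 and 11 at 4 °C, 15 and 17 at 30 °C; adjusted p between 0.057 and 0.0917 in edgeR) and that of Cish without any 1 of 6 (7, 8 and 12 at 4 °C, 14, 15 and 16 at 30 °C; between 0.0735 and 0.134). Without the 6 mice high in muscle markers the change of Socs2 was -0.57 (edgeR adjusted p = 0.328). The differences between genotypes in the response were -0.35 (interval -1.39 to 0.68) and -1.34 (interval -3.16 to 0.48), and without any 1 mouse they ranged from -0.66 to 0.21 and from -2.19 to -1.0. Without the 6 mice high in muscle markers that of Cish was -3.14 (edgeR adjusted p = 0.0516, not called). At 30 °C, edgeR called 0 of the 9 genes between genotypes (0.00754% of all genes), with 1 (Ghr) at an unadjusted p under 0.05 and 0 called by DESeq2. Over all genes, 1209 passed at an unadjusted p under 0.05 there and DESeq2 called 8. Of the 9, 0 were without overlap (3.15% of all genes).

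Of the wider pathway in the cold, 3 of 16 tested genes of receptor signalling were higher and 3 lower in CTRL mice, where 49.1% of all genes were called, and 5 were higher and 3 lower in BATKO mice, where 40.3% were. Medians of the 3 lists were 0.04, -0.32 and -0.59 in CTRL mice (-0.014 over all genes) and 0.24, -0.31 and -0.56 in BATKO mice (-0.021). The 4 with the lowest p in CTRL mice were Ptpn11 (log2 fold change 1.01, edgeR adjusted p = 1.53e-06), Irs1 (-1.50, edgeR adjusted p = 4.17e-05), Jak2 (-0.87, edgeR adjusted p = 0.00124) and Irs2 (-2.30, edgeR adjusted p = 0.00165). In BATKO mice they were Ptpn11 (0.62), Prlr (2.65), Socs6 (0.67) and Jak2 (-0.51). In the IGF list, 3 of 6 were lower in CTRL mice, namely Igf1r (-0.94), Igf2r, which clears IGF2 (-0.61), and Igfals (-0.99), and 1, Igf2r (-0.62), was lower in BATKO mice. Of 8 tested STAT5 targets, 2 were higher and 4 lower in CTRL and 0 higher and 5 lower in BATKO mice. The cell cycle inhibitor Cdkn1b was lower in both (-1.18 and -0.81), as were the cyclin gene Ccnd2 (-0.96 and -0.50) and the survival gene Mcl1 (-0.66 and -0.55).

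In the diet experiment edgeR called 0 of the 9 genes in any comparison. For HFD against chow in CTRL mice, 3.94% of all genes were called (1.89% higher and 2.04% lower). Of all genes, 2802 passed at an unadjusted p under 0.05 and DESeq2 called 872. Of the 9, 1 (Socs2) passed at an unadjusted p under 0.05, and DESeq2 called 1. This was Socs2, with 17.4, 34.9, 53.9 and 54 CPM on chow and 20.5, 25.8, 23 and 19.5 CPM on HFD. Of the chow mice, 3 were above all HFD mice and 1 was below them. The log2 fold change was -0.85 (SE 0.27, edgeR adjusted p = 0.0941). It was called by DESeq2 (adjusted p = 0.0287), with no filter on low counts (0.000571, edgeR) and without chow mouse 1 (log2 change -1.12, edgeR adjusted p = 0.00869). Chow mice 3 and 4, the 2 highest for Socs2, had skeletal muscle marker sums of 1958 and 1385 CPM, and the other 6 CTRL mice had 0.762 to 497 CPM. Without those 2 mice and BATKO mouse 15, the mice of this experiment above 1000 CPM, the change of Socs2 was -0.24 (edgeR adjusted p = 0.62). Cish had 53.5, 116, 143 and 68.6 CPM on chow and 29, 30.0, 38.6 and 136 CPM on HFD, and without HFD mouse 11, the one that stood high, its change went from -0.71 (edgeR adjusted p = 0.389) to -1.57 (edgeR adjusted p = 0.0375). For Ghr, Stat5a, Stat5b, Igf1 and the 3 binding proteins the log2 fold changes lay between -0.16 and 0.16.

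In BATKO mice, with 2 chow and 3 HFD mice, 0.0696% of all genes were called and 0 of the 9. Of the 9, 2 (Ghr and Igfbp3) passed at an unadjusted p under 0.05 and 0 were called by DESeq2. Of all genes, 1996 passed at an unadjusted p under 0.05 and DESeq2 called 235. Ghr had 308 and 330.4 CPM on chow and 245, 229 and 238 CPM on HFD (-0.43, edgeR adjusted p = 0.252), and Igfbp3 7.54 and 9.0 CPM and 13.7, 14.9 and 15.8 CPM (0.84, edgeR adjusted p = 0.264). Both pairs of groups did not overlap, as was so for 4 of the 9 and for 36.4% of all genes at this group size. Also without overlap were 6 of 8 brown adipocyte markers (1 called higher, median log2 change 0.26) and 4 of 6 macrophage markers (0 called, median -0.55). Of 7 stromal progenitor markers this held for 0, and of 5 endothelial markers for 1. Their part in the gaps of Ghr and Igfbp3 was not tested. Between genotypes, edgeR called 0 of the 9 and 0% of all genes on HFD, on chow and for the difference of the responses. At an unadjusted p under 0.05 these comparisons had 1 (Stat5a), 4 (Ghr, Socs2, Cish and Igfbp3) and 1 (Ghr) of the 9, and DESeq2 called 0 of the 9 in each. Over all genes, 691, 1024 and 740 passed at an unadjusted p under 0.05, and DESeq2 called 9, 31 and 0. On chow, 3 of the 9 genes (Ghr, Cish and Igfbp3) had no overlap, against 17.7% of all genes. Macrophage marker sums were 152 and 189 CPM in the 2 BATKO and 63.2 to 75 CPM in the CTRL mice on chow (5 of 6 markers without overlap, median log2 difference 1.11), and stromal progenitor sums were 435 and 501 CPM against 284 to 351 CPM (4 of 7, median 0.38), with 0 of the 13 markers called. Their part in these gaps was not tested. With no filter on low counts, Socs2 (edgeR adjusted p = 0.0146) and Cish (0.00303) were called lower in BATKO mice on chow. The difference of Socs2 went from -0.91 to -0.30 (edgeR adjusted p = 0.821) without the 3 mice above 1000 CPM of muscle markers. On chow, Ghr of both BATKO mice was above all 4 CTRL mice (209, 282, 194 and 219 CPM), a log2 difference of 0.50 (SE 0.16, edgeR adjusted p = 0.385). Of the pathway lists, Irs2 (-1.65, edgeR adjusted p = 0.0445) was lower and Ccnd1 (1.33, edgeR adjusted p = 0.00505) higher on HFD in CTRL mice, where 3.94% of all genes were called, and no other listed gene was called in the 5 diet comparisons.

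**Figure D3:**
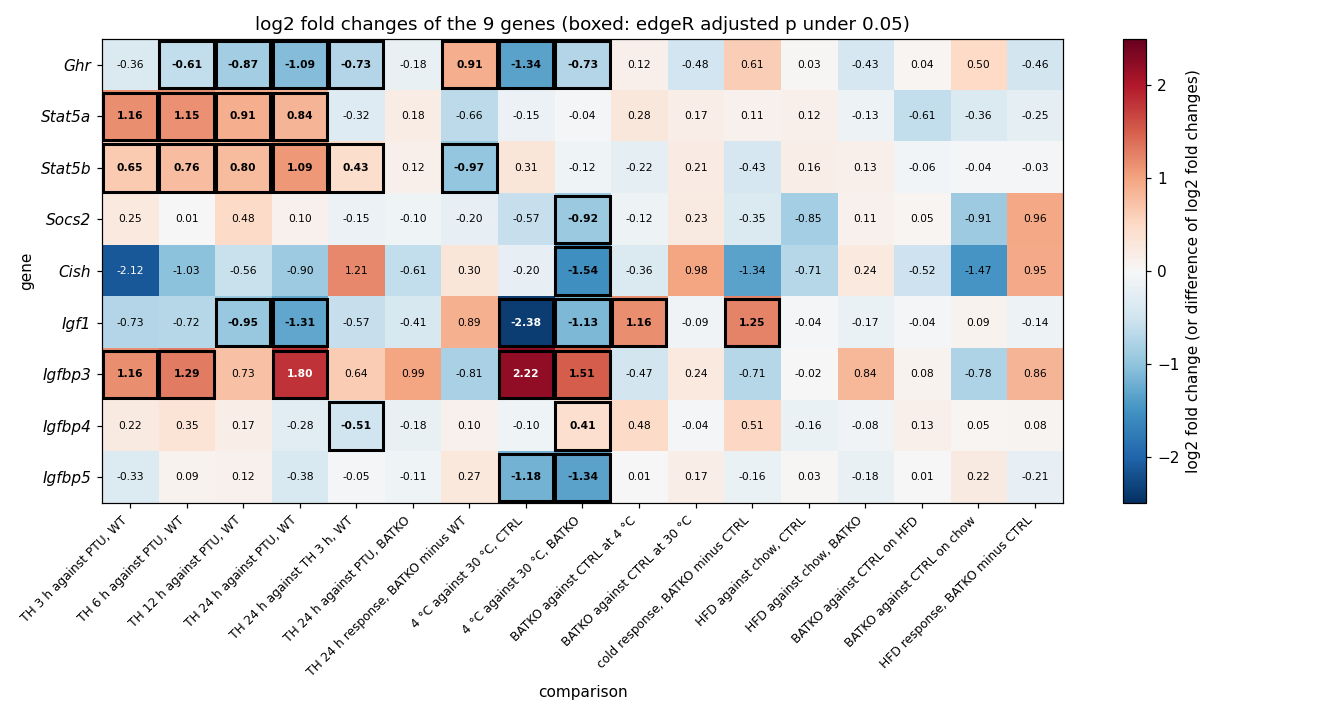
Colour map of the log2 fold changes of the 9 genes (rows) in the 17 comparisons (columns), from blue (lower) to red (higher), with each value printed, boxes around calls of edgeR, and differences between 2 log2 fold changes in columns named response. Ghr, Igf1 and Igfbp3 are boxed in both the TH and the cold columns, the Stat5 genes only in TH columns, and no diet column holds a box.

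Set side by side, Ghr and Igf1 fell and Igfbp3 rose both 24 h after TH in WT mice and in the cold in CTRL mice. Ghr changed by -1.09 after TH and -1.34 in the cold, Igf1 by -1.31 and -2.38, and Igfbp3 by 1.80 and 2.22 on the log2 scale. Stat5a and Stat5b were called after TH alone (0.84 and 1.09, against -0.15 and 0.31), and Igfbp5 in the cold alone (-0.38 after TH, -1.18 in the cold). The experiments were fitted separately and these differences between them were not tested.

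Levels of different genes were compared per kilobase of exon. In PTU-fed WT mice (4 mice) the order was Ghr (34.2 ± 5.43 CPM per kb, SD), Igfbp4 (13.1 ± 2.76), Igfbp5 (11.7 ± 1.42), Igf1 (8.71 ± 3.26), Cish (6.9 ± 4.06), Stat5a (3.56 ± 0.545), Stat5b (3.28 ± 0.244), Igfbp3 (2.11 ± 0.289) and Socs2 (0.707 ± 0.0753). The neighbours Igfbp4 and Igfbp5, Igfbp5 and Igf1, Igf1 and Cish, Cish and Stat5a, and Stat5a and Stat5b did not differ beyond their spread. In CTRL mice at 4 °C (3 mice), Igfbp3 (14.7 ± 2.87) led, above Igfbp4 (10.9 ± 0.644), Igfbp5 (10.2 ± 1.23) and Ghr (9.79 ± 2.44), while Igf1 (0.731 ± 0.113) and Socs2 (1.04 ± 0.607) were the lowest and did not differ beyond their spread. At 30 °C (4 mice), Ghr (24.8 ± 9.87) and Igfbp5 (23.2 ± 4.06) led, and Igfbp3 (3.13 ± 1.45) stood among the lower genes.

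The genes differed in how much mice of a group varied. The biological coefficient of variation that edgeR estimated for Cish was 0.695 for WT mice given PTU with or without TH, 0.572 in the temperature and 0.447 in the diet experiment, above 99.4%, 97.3% and 97.9% of the genes tested, which had medians of 0.144, 0.197 and 0.156. Socs2 stood at 0.29, 0.332 and 0.267, above 93.6%, 89.7% and 89.8% of genes. In the same WT mice, Igf1 (0.313, above 94.9%) and Igfbp3 (0.325, above 95.6%) varied as widely as Socs2. Stat5b was among the steadier genes in these WT mice (0.102, above 11.9%), and less so over all 30 mice of the TH experiment (0.123, above 30.2%). Precision followed this, with standard errors in the comparisons of WT mice against controls between 0.72 and 0.76 for Cish and of 0.10 or 0.11 for Stat5b, so that a change of the size seen for Stat5b was not detectable for Cish.

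Whether the genes varied together between mice of the same group was asked from the deviations of log2 CPM from the group means. Each was computed with Pearson's r and Spearman's rho, with permutation within groups and Benjamini-Hochberg adjustment over 135 relations in the 3 experiments (36 pairs of genes and 9 relations to the summed muscle markers in each). In the TH experiment (30 mice) 6 pairs passed by both measures. Mice with more Igf1 than their group had more Igfbp4 (r = 0.86, permutation adjusted p = 0.0027, and rho = 0.83, permutation adjusted p = 0.00202), and within the 20 WT and the 10 BATKO mice r was 0.78 and 0.94. Stat5b ran against Igfbp4 (r = -0.73, permutation adjusted p = 0.0054, and rho = -0.77, permutation adjusted p = 0.00202), with -0.62 and -0.84 within WT and BATKO mice. Ghr ran with Igf1 (r = 0.67, permutation adjusted p = 0.0192, and rho = 0.70, permutation adjusted p = 0.00743, 0.70 and 0.65 within genotypes), and both ran against Stat5b (r = -0.65 for Ghr and -0.66 for Igf1, permutation adjusted p = 0.0196 for each). Their rho was -0.67 and -0.72 (permutation adjusted p = 0.0128 and 0.0063), and within WT and BATKO mice r was -0.77 and -0.59 for Ghr and -0.57 and -0.74 for Igf1. Stat5a ran against Socs2 (r = -0.56, permutation adjusted p = 0.0192, and rho = -0.65, permutation adjusted p = 0.0081), more loosely in WT (-0.38) than in BATKO mice (-0.83), a difference that was not tested. Without the 2 mice farthest from the median of the first gene, r of these 6 pairs was 0.81, -0.68, 0.66, -0.60, -0.61 and -0.53 in the same order.

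Ghr and Igfbp4 passed by Pearson's r alone. Cish, for which the spread was widest, passed with no partner (r = 0.55 with Igf1 in the TH experiment, permutation adjusted p = 0.0765). In the temperature experiment (16 mice), Socs2 ran with Igf1 by rank (rho = 0.83, permutation adjusted p = 0.0222), with r = 0.79 just short of the threshold (permutation adjusted p = 0.0515), 0.80 and 0.83 within CTRL and BATKO mice and 0.79 without the 2 farthest mice. The diet experiment (13 mice) had 0 relations past the threshold. No relation to the summed muscle markers passed in any experiment. That of Socs2 in the diet experiment had r = 0.63 (permutation adjusted p = 0.452) and rho = 0.58 (permutation adjusted p = 0.513), with r = 0.89 within the 8 CTRL and -0.49 within the 5 BATKO mice and 0.29 without the 2 farthest mice. Pairs of genes share the libraries and their scaling, and these relations were chosen after the values were seen.

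**Figure D4:**
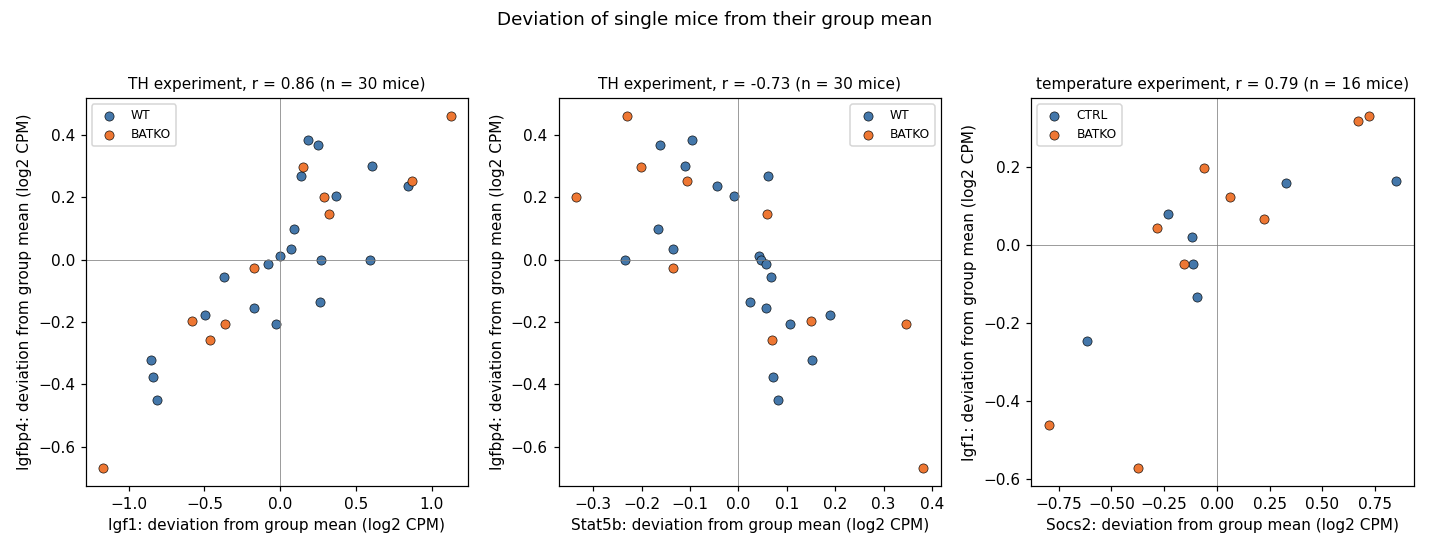
Deviation of each mouse from its group mean (log2 CPM) for Igf1 against Igfbp4 and Stat5b against Igfbp4 in the 30 mice of the TH experiment, and Socs2 against Igf1 in the 16 mice of the temperature experiment (blue, WT or CTRL mice, orange, BATKO mice). The points run upwards for Igf1 with Igfbp4 and for Socs2 with Igf1 and downwards for Stat5b with Igfbp4, with r of 0.86, -0.73 and 0.79.

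The genes most like the 3 widest-ranging members were searched among 8483 genes by the root mean square difference of group means, each centred within its experiment, over the 15 groups. Igf1, whose centred means spanned 2.53 log2 units, was closest to Ctf1 (0.23 log2 units) and Steap4 (0.24). Igfbp3, with a span of 2.25, was closest to Rilp (0.23) and Mtfp1 (0.25). Cish, with a span of 3.29, had no close match, the nearest being Rab30 and C1galt1 (0.51 each). This is a description over 15 groups and carries no test.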

How the data were processed

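RNA was measured by RNA-seq in BAT of 59 mice. Per the methods and labels, the authors extracted RNA with Trizol, made libraries with a SENSE total RNA kit, sequenced them on a NextSeq 500, aligned reads with Bowtie (Bowtie2 2.3.2.2 in the submitters' processing notes), removed alignments of low quality and counted reads per gene on GRCm38 with htseqcount. The annotation and strand setting are not given in the sources used here. The deposited values are raw counts per gene, without normalization by the authors. Each mouse is 1 library, and all columns were matched to mice.

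The 9 genes, the gene lists and the tests were chosen with earlier results of these data known. Genes with a mean normalized count above 10 were tested with edgeR 4.0.16 (R 4.3.3, limma 3.58.1), by TMM scaling and the quasi-likelihood test with Benjamini-Hochberg adjustment over all genes tested, and called at an adjusted p under 0.05. WT responses to TH were fitted on 20 mice and the difference between genotypes on all 30, while CPM values of the TH experiment were scaled over all 30. The temperature and diet experiments were fitted separately. Intervals are 95%. Up to 4 pathway genes with the lowest p were named per comparison by rule, and the further ones were chosen after their values were seen. Alternatives were DESeq2 1.42.0, other filters, other sets of mice and leaving out each mouse. The edgeR script was tested on simulated data. Depth was 7612059 to 18073627 counts per mouse.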

Additional observations from a re-analysis of the deposited data

Results flagged for a closer look

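Single mice stood apart from the rest of their group in 11 of 108 combinations of gene and group with 4 or 5 mice, where chance gives about 5.4 (1 in 20). The ratio given is the distance from that mouse to its closest group mate over the whole span of the group. Mouse B12, 6 h after TH, was high for Cish (70.7 CPM, the others 4.06 to 8.06, ratio 0.940) and for Socs2 (13.7 CPM, the others 4.17 to 5.15, ratio 0.897). Cish was also high in BATKO mouse 15 after TH (23.7 CPM, the others 0.806 to 5.11, ratio 0.812) and in CTRL mouse 11 on HFD (136 CPM, the others 29.0 to 38.6, ratio 0.909). Igfbp3 was high in BATKO mouse 8 after TH (33.3 CPM, the others 5.57 to 10.5, ratio 0.821) and in PTU-fed BATKO mouse 11 (10.5 CPM, the others 4.72 to 6.18, ratio 0.748). Socs2 was high in CTRL mouse 21 at 30 °C (18.3 CPM, the others 13.3 to 13.5, ratio 0.954). Stat5b was low in PTU-fed WT mouse B3 (16.2 CPM, the others 18.7 to 19.1, ratio 0.874) and in B20 at 12 h (26.5 CPM, the others 32.6 to 33.6, ratio 0.852). Igfbp5 was low in PTU-fed WT mouse B5 (57.7 CPM, the others 73.2 to 76.4, ratio 0.829) and in CTRL mouse 19 at 30 °C (103 CPM, the others 149 to 153, ratio 0.906).

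The response differed between genotypes, by the interaction term of edgeR, for Ghr (0.91 log2 units) and Stat5b (-0.97) after TH and for Igf1 in the cold (1.25), each as BATKO minus WT or CTRL.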

How the results depend on the processing

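Of the values of single genes in single comparisons under the alternatives, 2257 stayed on the same side of the threshold, 63 lost a call and 20 gained one. No called value changed direction, while some values that were not called changed sign. With no filter on low counts, called genes numbered 5 in place of 3 at 3 h after TH, 1 in place of 0 for HFD in CTRL mice and 2 in place of 0 for BATKO against CTRL on chow. Igf1 was also gained at 6 h after TH and Igfbp4 lost for cold in BATKO mice. DESeq2 also called 1 for HFD in CTRL mice. A fit of only the mice compared gave 0 in place of 1 between genotypes at 4 °C. Leaving out mice above 1000 CPM of muscle markers, an alternative chosen after seeing the data, gave 4 in place of 7 for cold in BATKO mice and 0 in place of 1 for the difference of the cold responses, with 6 fewer mice. In WT mice of the TH experiment, with 2 fewer, it gained Cish at 3 and 6 h and lost Igfbp3 at 6 h and Igfbp4 for 24 h against 3 h. Without any 1 mouse of the groups compared, counts ranged from 2 to 3 at 3 h after TH, 2 to 5 for 24 h against 3 h (5 without B11), 4 to 6 for cold in BATKO mice (4 without 8, 12 or 15), 0 to 1 between genotypes at 4 °C, 0 to 1 for the difference of the cold responses and 0 to 1 for HFD in CTRL mice. Beyond the smaller sets of mice, the cause of these shifts was not tested. No paired analysis was possible because, within an experiment, groups of 1 genotype have no mouse numbers in common, and no test was made across experiments. Socs2 and Cish varied widely between mice, and with 2 BATKO mice on chow small differences were not detectable.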
